A study of Mus musculus with 24 samples.

Results

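The transcripts of 32 genes of cholesterol and fatty acid synthesis were followed in bone marrow–derived macrophages (BMDM) through IL-4/IL-13 stimulation and its inhibition. The genes were taken by symbol from a fixed list of the pathway, chosen with earlier results of these data known. All 32 were found among the 56884 genes of the count table and passed the filter on low counts, which left 13679 genes. They comprise 5 regulators, 7 enzymes from acetyl-CoA to farnesyl diphosphate, 11 enzymes from squalene to cholesterol, 1 cholesterol carrier and 8 enzymes of fatty acid synthesis and desaturation. BMDM from 4 wild-type C57BL/6J mice, numbered 1, 2, 4 and 5, were sequenced in 6 conditions, giving 24 libraries with 1 library per mouse and condition. According to the methods the mice were female and 9 weeks old, and the cells had been grown from bone marrow with M-CSF. Naive cells received no cytokine. All other cells received IL-4 and IL-13, each at 20 ng/mL, for 24 hours, either alone or with an inhibitor added 1 hour earlier. The inhibitors were tunicamycin at 5 µg/mL, which blocks N-linked glycosylation in the endoplasmic reticulum (ER), Sal003 at 10 µM, which inhibits dephosphorylation of the translation factor eIF2α, and oligomycin at 1 µM, which inhibits the mitochondrial ATP synthase. Oligomycin was used with or without ISRIB, an inhibitor of the integrated stress response, at 1 µM. For these 8 libraries the sample titles and the library names disagree on which received ISRIB. They are therefore given as oligomycin set A, with ISRIB by title, and oligomycin set B, with ISRIB by library name, and no expression value was used to choose between the readings. All inhibitor conditions share the same 4 IL-4/IL-13 libraries as controls.

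The genes of this pathway are controlled together by the sterol regulatory element–binding proteins, which are made as membrane-bound precursors encoded by *Srebf1* and *Srebf2*. When ER sterol is low, the escort protein encoded by *Scap* carries the precursors to the Golgi, where proteolysis frees the transcription factor. When sterol is high, the proteins encoded by *Insig1* and *Insig2* hold the complex in the ER. *Srebf2* is known mainly for cholesterol synthesis and *Srebf1* for fatty acid synthesis and desaturation, and macrophages use both routes to make the lipids of new membrane.

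The promoters of 5 of the genes are shown as examples. They hold the sequence these factors are known to bind or belong to the genes that changed most, and not all such genes are shown. Each runs from 250 bases before the transcription start of the GENCODE canonical transcript, on the strand of the gene, through the first 50 transcribed bases. Capitals mark matches, on either strand, to the sterol regulatory element TCACNCCAC and to the CCAAT box, the site of the cofactor NF-Y, which reads ATTGG on the other strand. All coordinates are on GRCm39. *Hmgcs1* (chr13:120151732-120152031, plus strand) and *Acaca* (chr11:84063698-84063997, plus strand) had a sterol regulatory element in this window. *Scd1* (chr19:44396291-44396590, minus strand), *Fads2* (chr19:10079154-10079453, minus strand) and *Idi1* (chr13:8935669-8935968, plus strand) had CCAAT boxes.
Hmgcs1: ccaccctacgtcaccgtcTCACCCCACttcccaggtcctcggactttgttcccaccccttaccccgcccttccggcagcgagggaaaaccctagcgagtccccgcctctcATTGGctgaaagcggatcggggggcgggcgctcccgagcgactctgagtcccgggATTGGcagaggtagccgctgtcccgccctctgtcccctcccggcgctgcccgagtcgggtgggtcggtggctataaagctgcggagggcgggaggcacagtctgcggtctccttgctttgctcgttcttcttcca
Acaca: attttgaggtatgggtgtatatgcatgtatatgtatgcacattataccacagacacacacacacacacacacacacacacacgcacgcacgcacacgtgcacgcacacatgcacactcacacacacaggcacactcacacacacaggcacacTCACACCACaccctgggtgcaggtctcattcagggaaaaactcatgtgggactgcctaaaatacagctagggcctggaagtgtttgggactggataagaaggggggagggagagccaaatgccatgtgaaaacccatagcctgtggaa
Scd1: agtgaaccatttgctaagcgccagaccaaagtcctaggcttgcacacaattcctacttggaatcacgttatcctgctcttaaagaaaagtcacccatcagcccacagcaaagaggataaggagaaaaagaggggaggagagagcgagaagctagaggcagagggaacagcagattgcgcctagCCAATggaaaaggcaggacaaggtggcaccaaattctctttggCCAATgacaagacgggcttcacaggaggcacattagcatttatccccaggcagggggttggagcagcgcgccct
Fads2: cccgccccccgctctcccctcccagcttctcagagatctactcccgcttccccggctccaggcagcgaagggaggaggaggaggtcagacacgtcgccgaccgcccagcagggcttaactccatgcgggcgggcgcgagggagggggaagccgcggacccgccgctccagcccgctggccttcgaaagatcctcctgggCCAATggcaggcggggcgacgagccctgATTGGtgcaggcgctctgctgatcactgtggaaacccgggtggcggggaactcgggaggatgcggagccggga
Idi1: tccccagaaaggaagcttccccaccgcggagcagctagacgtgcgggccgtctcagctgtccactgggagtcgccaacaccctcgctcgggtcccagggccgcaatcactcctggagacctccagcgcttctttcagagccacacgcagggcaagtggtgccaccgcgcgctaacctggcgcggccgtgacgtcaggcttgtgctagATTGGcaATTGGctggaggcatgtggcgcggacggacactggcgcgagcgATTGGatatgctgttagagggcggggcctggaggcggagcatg

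Counting the first transcribed base as 0, the sterol regulatory element lay at -232 to -224 in *Hmgcs1* and at -98 to -90 in *Acaca*, where it ends a stretch of CA repeats. It was present in 3 of the 32 promoters (9.38%), against 1.34% of the 21667 promoters of protein-coding genes in the same window. The remaining one was that of *Fasn*, at -146 to -138, which is not shown. The CCAAT box was present in 21 of the 32 (65.6%), against 39.98% of all promoters. *Scd2*, *Elovl6* and *Dhcr7*, not shown but also among the genes that changed most, had neither motif in this window. The related E-box TCACGTGA (1.11% of all promoters) and the element TGATGNAAT (0.905%), which is bound by ATF4, the main transcription factor of the integrated stress response, were present in 0 of the 32. These matches describe letters in a short window and not binding.

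Library depth ranged from 16238727 to 26725278 reads on genes, and the levels below are in CPM, the reads of a gene scaled to the size of its library after TMM normalization, in the order of mice 1, 2, 4 and 5. The stimulus was visible in *Arg1*, an IL-4/IL-13 target, which was at 0.0513 ± 0.0408 CPM (SD, n = 4) before and 455 ± 33.2 CPM after stimulation. *Trib3*, a target of the integrated stress response, was at 3.55 ± 0.502 CPM in IL-4/IL-13 cells, 33.8 ± 5.48 CPM with Sal003, 835 ± 28.4 CPM with tunicamycin, and 542 ± 14.8 CPM and 146 ± 4.35 CPM in oligomycin sets A and B. The 6 macrophage markers (*Adgre1*, *Csf1r*, *Cd68*, *Itgam*, *Mertk* and *Lyz2*) summed to 30080 to 35760 CPM in naive libraries, 11340 to 13730 in IL-4/IL-13, 13330 to 15300 with Sal003, 15850 to 17410 with tunicamycin, 12990 to 15110 in set B and 8446 to 9305 in set A. A sum follows its most abundant markers and need not hold for each of them. The 5 granulocyte markers (*S100a8*, *S100a9*, *Ngp*, *Mpo* and *Elane*) summed to 31.4 to 61.2 CPM in naive libraries, 18.1 to 33.3 in IL-4/IL-13, 4.21 to 6.64 with Sal003, 0.0514 to 0.286 with tunicamycin, 14.6 to 18.4 in set B and 1.98 to 3.72 in set A. *Elane* was at 0 in every tunicamycin and set A library. The 3 fibroblast markers (*Col1a1*, *Col1a2* and *Dcn*) ranged over mice from 17.0 to 128.9 CPM in naive cells, 14.3 to 81.4 in IL-4/IL-13 cells, 7.46 to 46.6 with Sal003, 3.36 to 23.5 with tunicamycin, 7.90 to 51.2 in set B and 5.40 to 52.8 in set A. The 3 adipocyte markers (*Adipoq*, *Plin1* and *Car3*) were low. They summed to 0.0488 to 0.161 CPM in naive cells, 0.958 to 1.53 in IL-4/IL-13 cells and 0.566 to 1.36 with Sal003. With tunicamycin they summed to 0 to 0.0514 CPM, in set B to 0.165 to 0.792 and in set A to 0.237 to 0.524. Of the 3, *Plin1* was at or near 0 throughout, and *Adipoq* and *Car3* are not given singly here. The means of the granulocyte, fibroblast and adipocyte lists were lower with each inhibitor than with IL-4/IL-13 alone, and that of the macrophage list was lower in set A and higher in the other inhibitor conditions. The part of these lists in the results below was not tested. In the Sal003 group mouse 5 had the lowest level of the 4 mice for 31 of the 32 members, against 0 to 21 for any mouse in the other conditions. No such count over all genes is given, so whether this is particular to these genes is not known.

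A gene is called changed below when its *P* in edgeR's quasi-likelihood test, adjusted by the Benjamini-Hochberg method over all 13679 genes, was under 0.05. Errors of log2 fold changes are standard errors. Many genes given with every library's value were picked for large called changes. A lack of overlap between their groups is therefore description and no further support, and it was not counted over all genes. Since whole cultures were sequenced, fewer cells of a type and less RNA per cell cannot be told apart. The plot of shares of genes called sets the 32 genes beside all genes tested, and the map of log2 fold changes gives each member in each comparison.

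**Figure D1:**
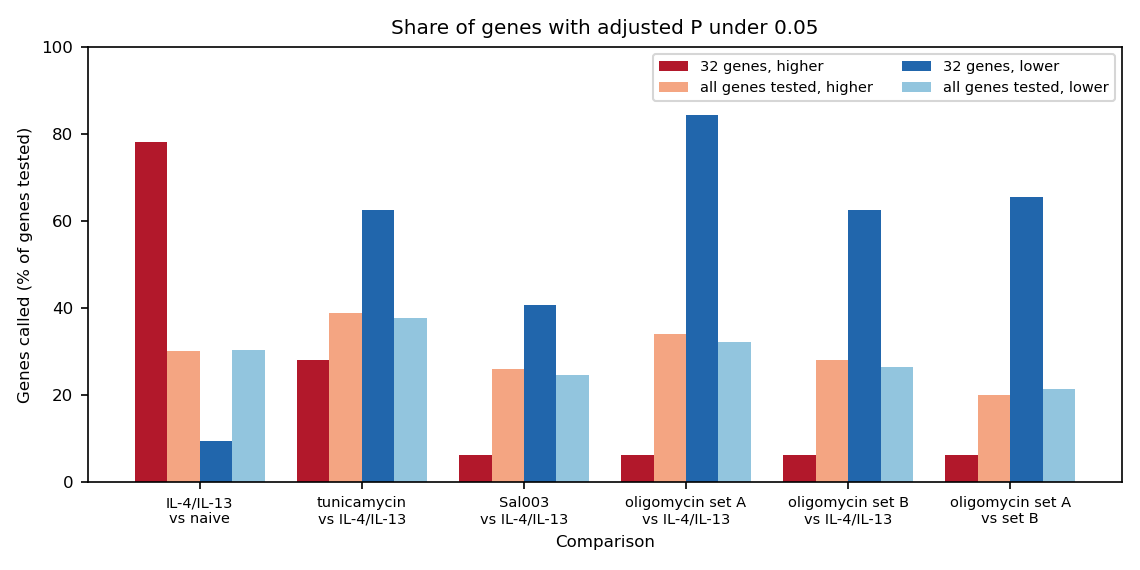
Share of genes called higher (red) or lower (blue) at an adjusted P under 0.05, in percent of genes tested, for the 32 genes (dark bars) and all 13679 genes tested (light bars) in 6 comparisons. Of the 32 genes, 78.1% were higher with IL-4/IL-13 than in naive cells, and 84.4% were lower in oligomycin set A than with IL-4/IL-13 alone.

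Per kilobase of canonical transcript, the fatty acid enzyme *Acly*, which makes cytosolic acetyl-CoA, had the highest level of the 32 in IL-4/IL-13 cells at 48.4 ± 0.952 CPM per kb (SD, n = 4). The sterol isomerase *Ebp* followed at 30.6 ± 3.29, then the polyunsaturated fatty acid desaturase *Fads1* at 28.9 ± 1.89 and *Srebf2* at 28.9 ± 2.35, 3 genes whose levels lay within the spread between mice. The lowest were *Elovl6*, the elongase of saturated fatty acids, at 0.638 ± 0.0756, the isomerase *Idi1* at 1.10 ± 0.0808 and the sterol reductase *Hsd17b7* at 1.25 ± 0.155 CPM per kb. The stearoyl-CoA desaturase *Scd2* reached 20.3 ± 0.352, against 2.24 ± 0.123 for its relative *Scd1*.

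The first comparison asked how the cytokines alone moved the pathway. With IL-4/IL-13, 25 of the 32 genes rose against naive cells, where 30.1% of all genes rose, and 3 fell, where 30.4% fell. The median log2 fold change of the members was 0.51, against -0.02 over all genes. Both desaturases *Scd1* and *Scd2* gained most, and the sterol dehydrogenase *Nsdhl*, the reductase *Dhcr7* that completes cholesterol, and the squalene epoxidase *Sqle* each more than doubled on average. At the larger threshold of a change of at least 2.5-fold, 3 members rose, *Scd1*, *Scd2* and *Nsdhl* (5.39% of all genes), and 0 fell, where 6.08% of all genes fell. By an unadjusted *P* under 0.05, and by DESeq2, 0 also fell by that much.

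*Scd2* was at 24.4, 19.8, 24.3 and 22.2 CPM in naive cells and at 109, 114, 110 and 110 CPM with IL-4/IL-13 (log2 fold change 2.29 ± 0.08, adjusted *P* = 1.94e-17). *Scd1* was at 2.73, 3.70, 3.43 and 2.44 CPM before and 12.0, 10.5, 11.4 and 11.1 CPM after stimulation (log2 fold change 1.87 ± 0.14, adjusted *P* = 1.18e-11). For both genes each stimulated library stood above each naive one. *Acaca*, the acetyl-CoA carboxylase that commits acetyl-CoA to fatty acids, went from 9.56, 8.76, 11.5 and 10.9 to 17.6, 19.0, 23.2 and 18.6 CPM (log2 fold change 0.94 ± 0.11, adjusted *P* = 8.76e-08), again without overlap. Of its 50-base fragments, 52.6% also occur in the pseudogene *Gm5182*, so its counts are uncertain.

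In the sterol branch, *Nsdhl* went from 11.9, 14.0, 13.1 and 12.6 CPM in naive cells to 33.1, 36.1, 35.0 and 33.6 CPM (log2 fold change 1.42 ± 0.07, adjusted *P* = 7.57e-15). *Dhcr7* went from 22.0, 22.7, 23.6 and 21.6 to 46.6, 47.0, 55.4 and 44.7 CPM (log2 fold change 1.11 ± 0.11, adjusted *P* = 1.53e-09). *Sqle*, an oxygen-dependent step known to limit the pathway, went from 12.7, 13.3, 16.2 and 10.5 to 25.9, 27.3, 32.8 and 27.0 CPM (log2 fold change 1.10 ± 0.12, adjusted *P* = 2.23e-08). None of the 3 overlapped between naive and stimulated cells. Of the 7 enzymes up to farnesyl diphosphate 5 rose, by 0.44 to 0.88 on the log2 scale, led by *Idi1* and by the decarboxylase *Mvd* and the synthase *Hmgcs1* at 0.84 and 0.84. The thiolase *Acat2* and the kinase *Pmvk* were at 0.30 ± 0.13 and -0.02 ± 0.12 and were not called, though with mouse as a block *Acat2* was called (edgeR, adjusted *P* = 0.0374). Of the 11 enzymes from squalene onward 9 rose. The exceptions were *Tm7sf2*, a sterol reductase, and *Sc5d*, the desaturase that acts just before *Dhcr7*, which fell by 0.42 and by 0.18 on the log2 scale. The naive and stimulated libraries of *Sc5d* overlapped, and its call was lost when any 1 of the 4 mice was left out (log2 fold change -0.21 to -0.14) and with DESeq2. The calls of *Fdft1* and *Elovl6* were lost without mouse 4 (0.23) and mouse 2 (0.31), respectively. In fatty acid desaturation *Fads1*, which makes arachidonic acid, fell by 0.43, and its partner *Fads2* was at 0.06 ± 0.17 and was not called.

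Among the regulators, *Srebf2* went from 94.3, 85.2, 109.7 and 95.4 CPM to 137, 143, 164 and 142 CPM (log2 fold change 0.61 ± 0.07, adjusted *P* = 5.59e-08) and *Srebf1* from 60.2, 62.1, 71.8 and 64.7 to 90.1, 93.5, 102 and 90.4 CPM (log2 fold change 0.54 ± 0.06, adjusted *P* = 7.29e-09). Neither gene overlapped between the groups. *Insig1*, itself a known target of the pathway, went from 41.3, 41.8, 39.9 and 35.8 to 54.5, 58.0, 62.1 and 55.9 CPM (log2 fold change 0.54 ± 0.07, adjusted *P* = 1.46e-07). *Insig2* changed less, from 25.7, 27.8, 32.3 and 26.9 to 33.9, 32.9, 36.4 and 33.8 CPM (log2 fold change 0.28 ± 0.06, adjusted *P* = 5.10e-04), and its highest naive library was just under the lowest stimulated one. *Scap* was at 77.9, 71.5, 86.1 and 82.2 CPM in naive and 68.8, 73.8, 80.1 and 75.0 CPM in stimulated libraries, which overlapped (log2 fold change -0.09 ± 0.05, not called). The carrier *Stard4* rose by 0.52 on the log2 scale.

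Of 30 other genes of lipid synthesis and its control, 10 rose and 11 fell with IL-4/IL-13, with a median of -0.08. Of all genes, 30.1% rose and 30.4% fell. Those past 1 on the log2 scale were *Por*, the electron donor of *Cyp51* and *Sqle*, at -1.50 and *Mid1ip1*, an activator of acetyl-CoA carboxylase, at -1.08. Of 6 genes of the liver X receptor route, which answers high sterol, 2 rose and 4 fell. The exporter *Abcg1* was at 1.30 and the ubiquitin ligase *Mylip* at -1.71.

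**Figure D2:**
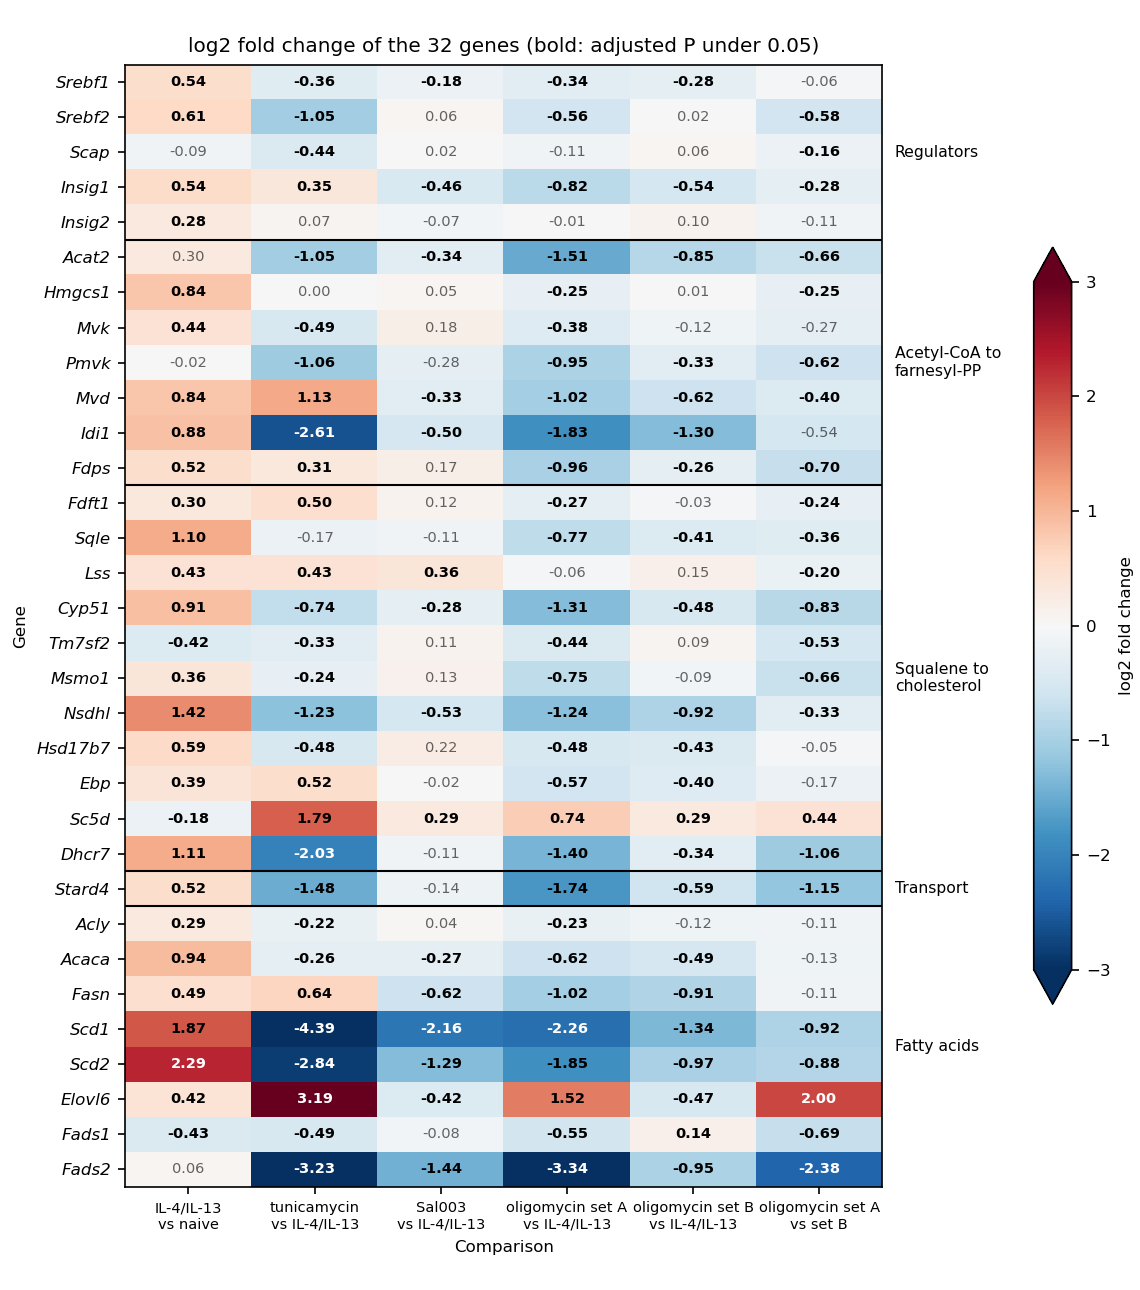
Fitted log2 fold change of each of the 32 genes, in rows grouped by step, in each of 6 comparisons, in columns. Colour runs from blue (lower) to red (higher) and saturates at 3, and bold numbers mark an adjusted P under 0.05. Oligomycin set A is blue in nearly every row, with Elovl6 at 1.52 and Sc5d at 0.74 the called exceptions, and the tunicamycin column holds the extremes, from -4.39 for Scd1 to 3.19 for Elovl6.

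Tunicamycin was compared with IL-4/IL-13 alone to ask what glycosylation block in the ER did to the stimulated state. Members moved in both directions. Of the 32 genes 20 fell, where 37.6% of all genes fell, and 9 rose, where 38.7% of all genes rose, and the median log2 fold change was -0.34, against 0.01 over all genes. By at least 2.5-fold 6 fell (14% of all genes) and 2 rose (8.56% of all genes). The 6 were *Scd1*, *Scd2*, *Fads2*, *Idi1*, *Dhcr7* and *Stard4*, and the 2 were *Elovl6* and *Sc5d*. Within the fatty acid branch *Elovl6* and the desaturases thus moved in opposite directions, and within the last steps of cholesterol synthesis so did *Sc5d* and *Dhcr7*, as the plots of levels in each library show.

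*Scd1*, which makes oleate from stearate, was at 0.513, 0.524, 0.681 and 0.408 CPM with tunicamycin, each of them below every naive and every stimulated library (log2 fold change -4.39 ± 0.18, adjusted *P* = 3.02e-17). This rested on 8 to 12 reads per tunicamycin library, against 183 to 216 in IL-4/IL-13 libraries. *Scd2* was at 15.8, 15.3, 14.5 and 16.1 CPM (log2 fold change -2.84 ± 0.09, adjusted *P* = 1.21e-19), also below every naive library. *Fads2*, the first desaturase toward polyunsaturated fatty acids, went from 9.30, 9.18, 9.53 and 6.92 CPM with IL-4/IL-13 to 0.873, 1.28, 0.794 and 0.713 CPM with tunicamycin (log2 fold change -3.23 ± 0.23, adjusted *P* = 2.49e-12). The groups of all 3 genes were far apart. *Elovl6*, which lengthens palmitate to stearate, moved the other way, from 3.40, 4.04, 3.74 and 4.49 CPM to 32.3, 38.9, 34.9 and 36.3 CPM (log2 fold change 3.19 ± 0.11, adjusted *P* = 1.22e-18). Every tunicamycin library exceeded every library of the other conditions examined here. *Fasn*, the fatty acid synthase, rose by 0.64 on the log2 scale, from 50.6, 51.3, 49.4 and 46.4 to 71.1, 82.4, 77.3 and 77.0 CPM. *Acly*, *Acaca* and *Fads1* fell by less, by 0.22, 0.26 and 0.49 on the log2 scale. The *Acaca* libraries overlapped, and its call was lost without mouse 1 (-0.21) or mouse 4 (-0.17).

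**Figure D3:**
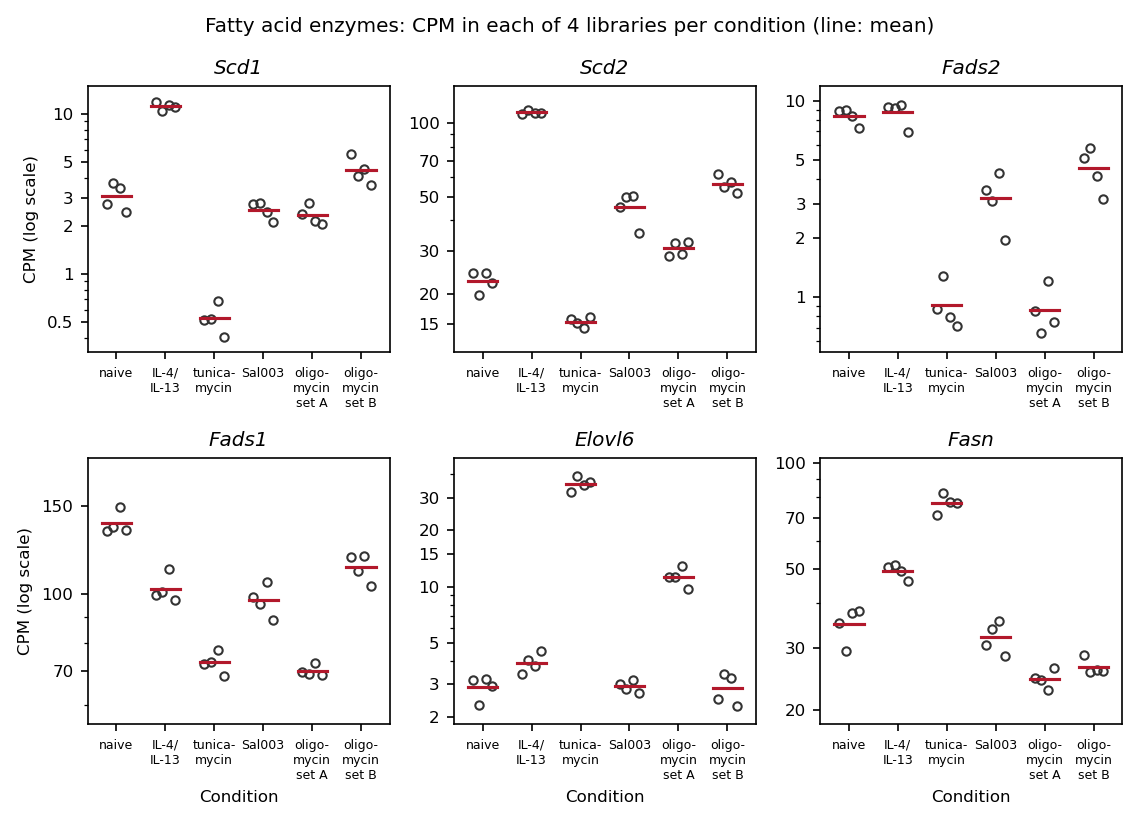
CPM on a log scale for 6 fatty acid enzymes in each condition, with a circle for each of 4 libraries and a line at the mean. Elovl6 stood at 32.3 to 38.9 CPM with tunicamycin and 9.69 to 12.9 CPM in oligomycin set A, against 2.28 to 4.49 CPM in the other libraries, whereas Fads2 was at 0.658 to 1.28 CPM in the same 2 conditions.

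In the sterol branch *Idi1*, which isomerizes isopentenyl diphosphate, went from 3.06, 2.77, 3.00 and 2.61 CPM with IL-4/IL-13 to 0.308, 0.524, 0.624 and 0.408 CPM with tunicamycin (log2 fold change -2.61 ± 0.23, adjusted *P* = 1.26e-10). These levels are low, with 6 to 11 reads in a tunicamycin library, and 25% of its 50-base fragments occur in pseudogenes. *Dhcr7* was at 11.0, 10.5, 13.4 and 12.5 CPM, below every naive library (log2 fold change -2.03 ± 0.11, adjusted *P* = 1.75e-14). *Stard4* was at 11.1, 12.3, 10.7 and 11.2 CPM, likewise below naive (log2 fold change -1.48 ± 0.08, adjusted *P* = 2.01e-14). Against these, *Sc5d* went from 21.3, 20.8, 22.5 and 17.9 to 69.0, 76.3, 72.0 and 68.5 CPM (log2 fold change 1.79 ± 0.07, adjusted *P* = 3.67e-17) and *Mvd* from 23.8, 21.6, 24.2 and 22.1 to 50.0, 48.6, 51.6 and 50.3 CPM (log2 fold change 1.13 ± 0.07, adjusted *P* = 4.83e-13). No tunicamycin library of either gene overlapped any other library. The other members that rose were *Insig1*, *Fdps*, *Fdft1*, *Lss* and *Ebp*, by 0.31 to 0.52 on the log2 scale. Those that fell by about 1 were *Acat2* (-1.05), *Pmvk* (-1.06) and *Nsdhl* (-1.23). Among the smaller calls, that of *Tm7sf2* (-0.33) was lost without mouse 2 (-0.26), mouse 4 (-0.30) or mouse 5 (-0.26), and that of *Msmo1* (-0.24) without mouse 4 (-0.20). The counts of *Fdps* and *Acat2* are uncertain, since 54.2% and 38.6% of their 50-base fragments occur in other genes. Exons of the lysosomal protease gene *Ctsb* overlap 24.8% of the exon bases of *Fdft1* on the other strand, and exons of *Akap9* overlap 24.6% of those of *Cyp51*. *Hmgcs1*, *Srebf2* and *Scap* overlap other genes on the other strand over 10% to 12% of their exon bases. How the counting treated strand is not given in the sources used here. *Tm7sf2* overlaps *Vps51* on the same strand over 10.8% of its exon bases, whatever the treatment of strand.

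**Figure D4:**
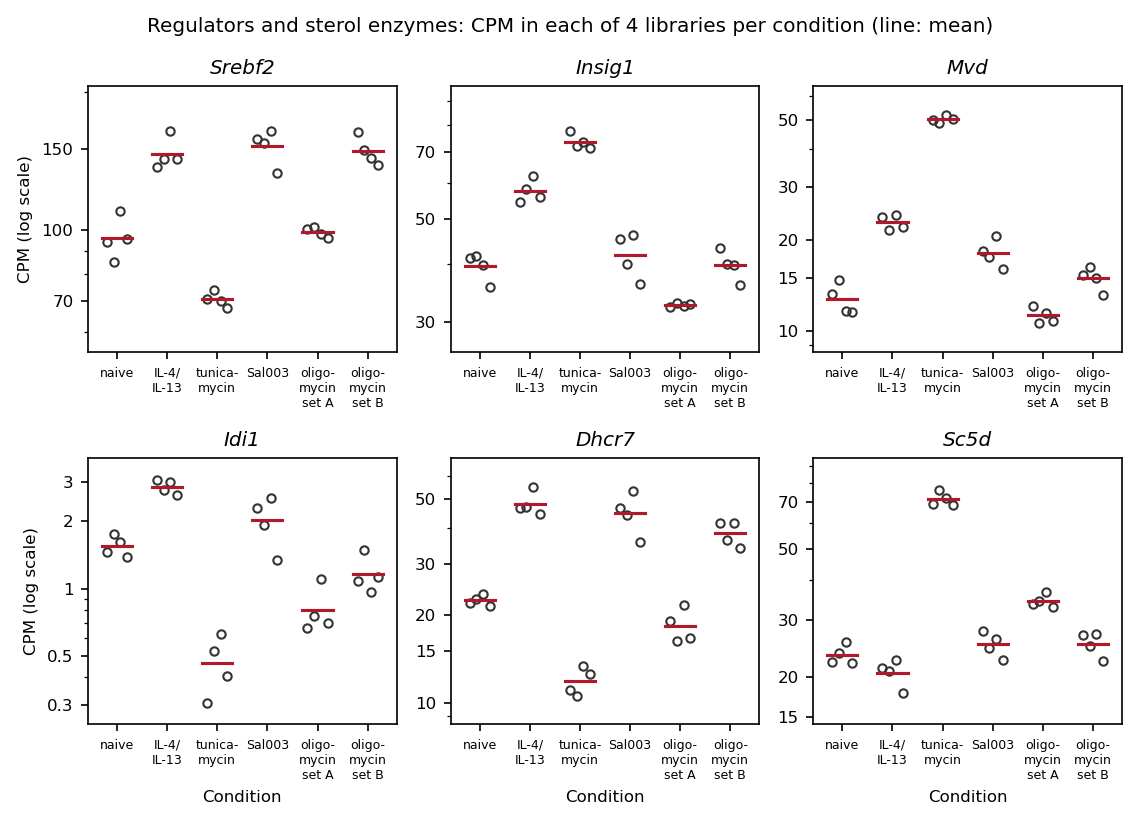
CPM on a log scale for 2 regulators and 4 sterol enzymes in each condition, with a circle for each of 4 libraries and a line at the mean. With tunicamycin Mvd and Sc5d were above all other libraries, at 48.6 to 51.6 and 68.5 to 76.3 CPM, and Idi1 and Dhcr7 were below them.

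The regulators moved in both directions as well. *Srebf2* was at 70.8, 74.1, 70.1 and 67.8 CPM, below every naive library (log2 fold change -1.05 ± 0.07, adjusted *P* = 1.33e-12), and *Srebf1* at 73.3, 73.4, 77.3 and 69.1 CPM (log2 fold change -0.36 ± 0.06, adjusted *P* = 2.61e-06), between the naive and stimulated means. *Scap* was at 55.6, 53.8, 56.6 and 53.3 CPM, lower than in any naive or stimulated library (log2 fold change -0.44 ± 0.05, adjusted *P* = 1.38e-08). *Insig1* was at 77.5, 71.9, 73.6 and 71.2 CPM and higher than in any other library (log2 fold change 0.35 ± 0.07, adjusted *P* = 3.09e-05). *Insig2* was at 36.6, 35.3, 36.1 and 36.0 CPM and overlapped the stimulated libraries (log2 fold change 0.07 ± 0.06, not called). *Hmgcs1* and *Sqle*, at 0.00 ± 0.08 and -0.17 ± 0.12, were not called either. The granulocyte markers were at their lowest in these libraries, between 0.0514 and 0.286 CPM.

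Of the 30 other lipid synthesis genes 19 rose and 8 fell with tunicamycin, with a median of 0.36. Of all genes, 38.7% rose and 37.6% fell. *Por* rose by 2.28, the sterol-binding ER protein *Tmem97* by 1.96 and *Spring1*, a known helper of precursor cleavage, by 1.32 on the log2 scale. *Mid1ip1* (1.41), the elongation cycle dehydratase *Hacd2* (1.11), the acyl-CoA synthetase *Acsl3* (1.06) and the malic enzyme *Me1* (1.01) rose as well. The phosphatidate phosphatase *Lpin1* was at -2.63 and the elongase *Elovl5* at -1.29. Of the liver X receptor route 2 of 6 rose and 4 fell, the receptor gene *Nr1h3* at -2.01 and *Abcg1* at -2.99.

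Sal003 raises phosphorylated eIF2α without an ER or mitochondrial inhibitor. With it, 13 of the 32 genes fell, where 24.6% of all genes fell, and 2 rose, *Lss* and *Sc5d*, where 25.9% of all genes rose. The median log2 fold change was -0.11, against 0.00 over all genes. Without mouse 5 in any condition the counts were 8 lower and 4 higher. By at least 2.5-fold *Scd1* and *Fads2* fell, 2 genes (5.04% of all genes), and 0 rose, where 2.68% of all genes rose. By an unadjusted *P* under 0.05, and by DESeq2, 0 also rose by that much.

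Of the 8 fatty acid enzymes 6 fell. *Scd1* was at 2.75, 2.76, 2.44 and 2.11 CPM, far below the stimulated libraries and overlapping the naive ones (log2 fold change -2.16 ± 0.14, adjusted *P* = 3.62e-12). *Scd2* was at 45.4, 49.7, 50.5 and 35.6 CPM, between the naive and stimulated libraries (log2 fold change -1.29 ± 0.08, adjusted *P* = 1.36e-12). *Fads2* was at 3.53, 3.10, 4.30 and 1.96 CPM (log2 fold change -1.44 ± 0.19, adjusted *P* = 6.83e-07), below every naive library. The fatty acid synthase *Fasn* was at 30.5, 33.9, 35.6 and 28.4 CPM and below every stimulated library (log2 fold change -0.62 ± 0.07, adjusted *P* = 1.22e-07). *Elovl6*, the member that rose most with tunicamycin, was at 3.01, 2.82, 3.17 and 2.68 CPM with Sal003, below every stimulated library (log2 fold change -0.42 ± 0.14, adjusted *P* = 0.0133). That call was lost without mouse 5 (-0.32), as were those of *Acaca* (-0.24), *Acat2* (-0.23), *Idi1* (-0.39) and *Cyp51* (-0.20). The call of *Acaca* was also lost without mouse 2 (-0.30) or mouse 4 (-0.19), that of *Cyp51* without mouse 2 (-0.27) or mouse 4 (-0.29), that of *Idi1* without mouse 1 (-0.55) or mouse 2 (-0.50) and that of *Acat2* without mouse 1 (-0.38). Without mouse 5 *Scd1*, *Fads2*, *Scd2* and *Fasn* were at -2.09, -1.36, -1.20 and -0.60 on the log2 scale, and were still called.

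Of the 7 enzymes up to farnesyl diphosphate 3 fell with Sal003, and of the 11 from squalene onward 2 fell and 2 rose. *Nsdhl* fell from the stimulated range to 25.0, 23.1, 25.2 and 22.1 CPM (log2 fold change -0.53 ± 0.07, adjusted *P* = 3.62e-07) and stayed above every naive library. *Idi1* was at 2.28, 1.92, 2.55 and 1.34 CPM, where mouse 5 was lowest (log2 fold change -0.50 ± 0.18, adjusted *P* = 0.0245). *Dhcr7*, which had fallen steeply with tunicamycin, was at 46.7, 44.1, 53.5 and 35.7 CPM and overlapped the stimulated libraries (log2 fold change -0.11 ± 0.10, not called). *Sqle*, *Hmgcs1* and *Stard4* were not called either, at -0.11 ± 0.12, 0.05 ± 0.08 and -0.14 ± 0.08. *Insig1* was the regulator that fell most, to 45.3, 40.1, 46.3 and 36.3 CPM (log2 fold change -0.46 ± 0.07, adjusted *P* = 2.96e-06), and *Srebf1* fell slightly, to 85.5, 81.9, 86.6 and 78.2 CPM (log2 fold change -0.18 ± 0.06, adjusted *P* = 0.00932). *Srebf2* was at 158, 154, 165 and 133 CPM, *Scap* at 74.3, 77.0, 76.2 and 73.9 CPM and *Insig2* at 33.3, 32.5, 34.0 and 30.6 CPM, all overlapping the stimulated libraries and with log2 fold changes of 0.06, 0.02 and -0.07, not called. Without mouse 5 *Nsdhl* was at -0.51, *Insig1* at -0.41 and *Srebf1* at -0.17, all still called, and *Fdps* and *Msmo1* were called higher, at 0.22 and 0.17. With mouse as a block *Fdps* was called higher and *Pmvk* lower, at 0.17 and -0.28 (edgeR, adjusted *P* = 0.0237 and 0.0334). Of the 30 other lipid genes 13 rose and 9 fell, where 25.9% and 24.6% of all genes did. Among the 30 no change reached 1, and of the 6 liver X receptor genes *Smpdl3a* reached 1.21.

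Oligomycin set A was compared with IL-4/IL-13 alone in the same way. In set A, 27 of the 32 genes fell, where 32.2% of all genes fell, and 2 rose, *Elovl6* and *Sc5d*, where 34% of all genes rose. The median log2 fold change was -0.69, against 0.01 over all genes. *Scap*, *Insig2* and *Lss* were not called. By at least 2.5-fold 7 fell (7.96% of all genes), which were *Fads2*, *Scd1*, *Idi1*, *Scd2*, *Stard4*, *Acat2* and *Dhcr7*, and *Elovl6* alone rose (4.79% of all genes). All 7 enzymes up to farnesyl diphosphate fell, and 9 of 11 from squalene onward, the demethylase *Cyp51* at -1.31, *Nsdhl* at -1.24 and *Sqle* at -0.77 on the log2 scale. The call of *Hmgcs1* (-0.25) was lost without mouse 2 (-0.22) or mouse 4 (-0.21), that of *Mvk* (-0.38) without mouse 4 (-0.31) and that of *Tm7sf2* (-0.44) without mouse 5 (-0.36). DESeq2 placed 8 genes at least 2.5-fold lower, with *Cyp51* at -1.34 the additional one.

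*Fads2* was at 0.852, 0.658, 1.21 and 0.750 CPM in set A, on average 10.1-fold lower than in stimulated cells and below every naive library (log2 fold change -3.34 ± 0.23, adjusted *P* = 3.08e-12). *Scd1* was at 2.37, 2.77, 2.15 and 2.05 CPM and overlapped the naive libraries (log2 fold change -2.26 ± 0.14, adjusted *P* = 4.12e-13), and *Scd2* at 28.7, 32.2, 29.1 and 32.8 CPM stayed above them (log2 fold change -1.85 ± 0.08, adjusted *P* = 5.57e-16). *Stard4*, the cholesterol carrier, was at 8.76, 9.78, 9.58 and 9.89 CPM, less than any naive or stimulated library (log2 fold change -1.74 ± 0.08, adjusted *P* = 3.03e-15). *Idi1* was at 0.663, 0.752, 1.10 and 0.700 CPM, also below naive (log2 fold change -1.83 ± 0.21, adjusted *P* = 2.14e-08), with 14 to 21 reads in a library. *Elovl6* rose to 11.3, 11.2, 12.9 and 9.69 CPM, above every naive, stimulated, Sal003 and set B library and below every tunicamycin one (log2 fold change 1.52 ± 0.12, adjusted *P* = 2.09e-11). *Sc5d*, the other gene that rose, was at 33.6, 34.5, 36.7 and 33.0 CPM (log2 fold change 0.74 ± 0.08, adjusted *P* = 4.21e-09). *Mvd*, *Fasn* and *Ebp*, which had risen with tunicamycin, fell here, at -1.02, -1.02 and -0.57 on the log2 scale.

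Among the regulators in set A, *Srebf2* was at 101, 102, 97.9 and 96.2 CPM, close to its naive level (log2 fold change -0.56 ± 0.07, adjusted *P* = 1.50e-07), and *Srebf1* at 69.8, 78.8, 77.9 and 71.3 CPM (log2 fold change -0.34 ± 0.06, adjusted *P* = 9.19e-06). *Insig1* was at 32.4, 33.1, 32.5 and 32.9 CPM, below every naive library (log2 fold change -0.82 ± 0.07, adjusted *P* = 9.71e-11). *Scap* was at 68.9, 67.3, 71.5 and 68.6 CPM and *Insig2* at 34.4, 33.1, 36.5 and 32.2 CPM, with log2 fold changes of -0.11 ± 0.05 and -0.01 ± 0.06, neither called. With mouse as a block *Scap* was called lower (-0.11, edgeR, adjusted *P* = 0.0378). Of the 30 other lipid genes 13 rose and 15 fell, where 34% and 32.2% of all genes did. *Spring1* was at 1.25, *Mid1ip1* at 1.08, *Lpin1* at -1.39 and *Rnf145*, a ubiquitin ligase for the escort protein, at -1.39. *Smpdl3a* of the liver X receptor route was at 1.33.

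Set B showed the same comparison in the other 4 oligomycin libraries. Of the 32 genes 20 fell, where 26.4% of all genes fell, and 2 rose, *Sc5d* and *Fads1*, where 27.9% of all genes rose. The median log2 fold change was -0.37, against 0.00 over all genes. The call of *Fads1* was lost in several alternatives, including without mouse 1 (0.09), mouse 2 (0.14) or mouse 5 (0.15), which left 1 gene higher. By at least 2.5-fold *Scd1* was the 1 gene that fell (5.02% of all genes) and 0 rose, where 2.94% of all genes rose. DESeq2 placed 2 at least 2.5-fold lower, *Scd1* and *Idi1* (-1.32). By an unadjusted *P* under 0.05, and by DESeq2, 0 also rose by that much.

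In set B the desaturase *Scd1* was at 5.63, 4.13, 4.52 and 3.60 CPM (log2 fold change -1.34 ± 0.13, adjusted *P* = 4.07e-09) and *Scd2* at 62.1, 54.7, 57.6 and 51.8 CPM (log2 fold change -0.97 ± 0.08, adjusted *P* = 1.45e-10). For *Scd2* this was midway, below every stimulated and above every naive library. *Fads2* was at 5.14, 5.79, 4.13 and 3.17 CPM (log2 fold change -0.95 ± 0.18, adjusted *P* = 8.93e-05), *Idi1* at 1.08, 1.49, 0.961 and 1.12 CPM (log2 fold change -1.30 ± 0.20, adjusted *P* = 3.86e-06) and *Nsdhl* at 18.1, 18.0, 18.7 and 18.2 CPM (log2 fold change -0.92 ± 0.07, adjusted *P* = 3.22e-11). All 3 were below their stimulated libraries without overlap. *Fasn* was at 28.5, 25.5, 25.8 and 25.7 CPM, below its naive libraries as well (log2 fold change -0.91 ± 0.08, adjusted *P* = 2.06e-10). *Elovl6* was at 2.49, 3.42, 3.22 and 2.28 CPM, and its highest library reached the lowest stimulated one (log2 fold change -0.47 ± 0.14, adjusted *P* = 0.00545). That call was lost without mouse 5 (-0.31), and that of *Pmvk* (-0.33) without mouse 1 (-0.36) or mouse 4 (-0.31). With mouse as a block *Acly* was called lower (-0.12, edgeR, adjusted *P* = 0.0377). *Insig1* fell to 43.4, 40.0, 39.8 and 36.0 CPM (log2 fold change -0.54 ± 0.07, adjusted *P* = 2.27e-07) and *Srebf1* to 80.5, 77.0, 76.0 and 76.3 CPM (log2 fold change -0.28 ± 0.06, adjusted *P* = 1.42e-04). *Srebf2* was at 163, 149, 143 and 138 CPM (log2 fold change 0.02 ± 0.07), *Scap* at 79.0, 76.2, 77.5 and 77.0 CPM (0.06 ± 0.05) and *Insig2* at 38.7, 36.5, 39.2 and 32.7 CPM (0.10 ± 0.06). These 3 overlapped the stimulated libraries and were not called. Of the 30 other lipid genes 15 rose and 8 fell, where 27.9% and 26.4% of all genes did. None of the 30 reached 1, and of the liver X receptor route *Smpdl3a* reached 1.06.

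The 2 oligomycin sets were then compared with each other, which tests what ISRIB changed, in a direction that the conflicting labels leave unknown. Of the 32 genes 21 were lower in set A relative to set B, where 21.3% of all genes were, and 2 were higher, *Elovl6* and *Sc5d*, where 19.9% of all genes were. The median log2 fold change was -0.34, against -0.002 over all genes. By at least 2.5-fold *Fads2* was lower (1.48% of all genes) and *Elovl6* higher (1.14% of all genes), 1 gene each.

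The values of each library, given above, did not overlap for *Fads2* (log2 fold change -2.38 ± 0.24, adjusted *P* = 1.91e-08) or *Elovl6* (log2 fold change 2.00 ± 0.12, adjusted *P* = 2.26e-12). *Stard4* ranged from 8.76 to 9.89 CPM in set A, against 19.4 to 22.6 CPM in the other set (log2 fold change -1.15 ± 0.09, adjusted *P* = 8.31e-11). *Dhcr7* spanned 16.3 to 21.6 and 34.1 to 41.6 CPM (log2 fold change -1.06 ± 0.11, adjusted *P* = 1.70e-08). *Scd1* and *Scd2* were lower in set A by 0.92 and 0.88 on the log2 scale (1.84e-05 and 4.58e-09 as adjusted *P*), each without overlap. *Srebf2* was lower in set A (log2 fold change -0.58 ± 0.07, adjusted *P* = 3.26e-07), as were *Insig1* (log2 fold change -0.28 ± 0.07, adjusted *P* = 0.00182) and *Scap* (log2 fold change -0.16 ± 0.05, adjusted *P* = 0.00832). The call of *Scap* was lost without mouse 1 (-0.15) or mouse 5 (-0.16). *Srebf1* and *Insig2*, at -0.06 ± 0.06 and -0.11 ± 0.06, were not called. *Fasn*, *Acaca* and *Acly*, the enzymes that build the saturated chain, were not called either, with log2 fold changes of -0.11 ± 0.08, -0.13 ± 0.11 and -0.11 ± 0.05.

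Several smaller calls between the sets were lost when a mouse was left out, though the fold changes kept their sign. The call of *Hmgcs1* (-0.25) was lost without mouse 1 (-0.20), mouse 2 (-0.23) or mouse 4 (-0.25), and that of *Sqle* (-0.36) without mouse 1 (-0.29) or mouse 2 (-0.34). The call of *Lss* (-0.20) was lost without mouse 1 (-0.21), mouse 4 (-0.22) or mouse 5 (-0.14), and that of *Fdft1* (-0.24) without mouse 1 (-0.18) or mouse 4 (-0.26). With mouse as a block, *Idi1*, *Mvk* and *Ebp* were called lower in set A, at -0.56, -0.27 and -0.17 (edgeR, adjusted *P* = 0.0374, 0.0368 and 0.0412). Of the 30 other lipid genes 7 were higher and 8 lower in set A, and of the 6 liver X receptor genes 2 and 3. Of all genes, 19.9% were higher and 21.3% lower.

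The inhibited cells were last compared with naive cells. *Scd1* was at -2.52 ± 0.20 with tunicamycin and 0.54 ± 0.15 in set B on the log2 scale relative to naive, both called by edgeR (adjusted *P* = 3.12e-11 and 0.00243). With Sal003 it was at -0.28 ± 0.16 (adjusted *P* = 0.119) and was not called, and in set A at -0.39 ± 0.16 (adjusted *P* = 0.0307). Its libraries overlapped the naive ones with Sal003 and in both sets. *Fads2*, which was not called with IL-4/IL-13 alone, was below naive in all 4 inhibitor conditions, at -1.38 with Sal003, -3.17 with tunicamycin, -0.89 in set B and -3.28 in set A, where the largest adjusted *P* of edgeR's test was 1.51e-04. *Elovl6* was above naive by 3.60 with tunicamycin and 1.94 in set A, and was at -0.003 with Sal003 and -0.05 in set B, where it was not called. *Insig1* ended above naive with tunicamycin (0.89, adjusted *P* = 7.12e-12) and below it in set A (-0.28, adjusted *P* = 9.13e-04). *Dhcr7* stayed above naive with Sal003 (1.00) and in set B (0.77) and fell below it with tunicamycin (-0.92). In set A it was lower by less (-0.29, edgeR, adjusted *P* = 0.0229), and its libraries overlapped the naive ones. These comparisons share the naive libraries and were not repeated in the alternatives described below. The order of the inhibitors was tested only between the 2 oligomycin sets.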

How the data were processed

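Poly(A) RNA of 24 libraries was sequenced as single reads. Per the methods and the submitters' processing notes, the authors used Cutadapt 1.8 for trimming, filtered out rRNA (fastq_screen) and low-complexity sequence (reaper), aligned to GRCm39 with STAR 2.7 and deposited raw, unnormalized counts per gene from htseq-count 0.9.1, a tool that leaves out reads hitting more than 1 gene. The strand setting is not given in the sources used here. Totals that belong to no gene (12.74% to 15.23% of reads) were left out. The TPM table from RSEM 1.2.31 was not used, because its header has more names than columns.

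Counts were tested with edgeR 4.0.16 (TMM, filterByExpr, quasi-likelihood test, R 4.3.3) in 1 model of all 24 libraries with a coefficient per condition. The fitting steps were checked on simulated counts for naive and IL-4/IL-13 only, drawn independently for each library. *P* values were adjusted by Benjamini-Hochberg over 13679 genes. Besides adjusted *P* under 0.05, the study's 2.5-fold threshold was applied. Replicates are separate mice. Libraries of the same mouse deviated together (median correlation 0.236 over 60 pairs, against -0.0543 over 180 pairs of different mice), and mouse was a block in an alternative, since the study states none. DESeq2 1.42.0 was another. Up to 6 members per comparison with the largest called change, alike in all 4 mice, were named with every library's value, with the 5 regulators always and other lipid genes when past 1 on the log2 scale. Promoters and overlaps came from GRCm39 with GENCODE vM39, and fragments of 50 bases were searched for in other genes. The members and lists were chosen with earlier results of these data known. Chi-square per gene between replicates was 2.19 to 36.1, so none was a repeat of another.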

Additional observations from a re-analysis of the deposited data

Results flagged for a closer look

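In 5 of the 192 groups of 4 libraries formed by the 32 genes and 6 conditions, the highest or lowest library stood farther from the rest than Dixon's 95% critical value allows. Chance alone flags about 1 in 20 such groups. The polyunsaturated desaturase *Fads2* was at 6.92 CPM in the IL-4/IL-13 library of mouse 5, against 9.18 to 9.53 CPM in the other 3. *Acaca*, the acetyl-CoA carboxylase, was at 14.26 CPM in the Sal003 library of mouse 5, against 16.8 to 17.2 CPM. *Fdps*, which makes farnesyl diphosphate, was at 12.89 CPM in the set A library of mouse 5, against 14.2 to 14.5 CPM. *Fasn* was at 28.49 CPM in the set B library of mouse 1, against 25.5 to 25.8 CPM, and *Fads1* at 149.5 CPM in the naive library of mouse 4, against 134 to 136 CPM. Mouse 5 was the low library in 3 of the 5, as it was for 31 of the 32 members with Sal003.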

How the results depend on the processing

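Of the 146 calls made for single members over the 6 comparisons, 22 were lost in at least 1 alternative, and the largest log2 fold change among these was 0.50 in size. None of the 146 changed sign. With mouse as a replicate block no count of members moved by over 1.5 times, 8 calls were gained and none was lost. Requiring 10 counts in every library removed *Idi1* and *Scd1* from the test. With a change of at least 2.5-fold also required, the members higher and lower were 3 and 0 for IL-4/IL-13, 2 and 6 for tunicamycin, 0 and 2 for Sal003, 1 and 7 for set A, 0 and 1 for set B and 1 and 1 between the sets. With DESeq2 and that threshold, an alternative chosen after seeing the data, set A had 8 and set B 2 lower, and the other counts were as with edgeR. The members higher in set B numbered 1 with DESeq2, with upper-quartile normalization, with no filter, with 10 counts in every library and with only the 2 groups fitted, and 1 to 2 when a mouse was left out. Leaving out a mouse gave 2 to 4 members higher and 8 to 11 lower with Sal003.

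The sign changes were all in members that were not called. With DESeq2, *Pmvk* was at 0.0004 with IL-4/IL-13, *Hmgcs1* at -0.0151 with tunicamycin, *Scap* at -0.0009 with Sal003, and *Srebf2* at -0.0043 and *Hmgcs1* at -0.0123 in set B. With upper-quartile normalization, *Hmgcs1* was at -0.0475 with tunicamycin, *Scap* at -0.0195 and *Acly* at -0.0004 with Sal003, and *Srebf2* at -0.0308 and *Hmgcs1* at -0.0401 in set B. With 10 counts in every library, the values were -0.0423 for *Hmgcs1* with tunicamycin, -0.0043 for *Scap* with Sal003, and -0.0048 for *Srebf2* and -0.0136 for *Hmgcs1* in set B. With only the 2 groups fitted, *Hmgcs1* was at -0.0226 with tunicamycin and -0.0061 in set B, and *Scap* at -0.0027 with Sal003. With no filter, *Pmvk* was at 0.0096 with IL-4/IL-13. When a mouse was left out, *Pmvk* spanned -0.1074 to 0.1564 with IL-4/IL-13. With Sal003, *Srebf2* spanned -0.0036 to 0.0964, *Scap* -0.0236 to 0.0502, *Tm7sf2* -0.0394 to 0.2177 and *Ebp* -0.0603 to 0.0055. *Insig2* spanned -0.0268 to 0.004 in set A. In set B, *Srebf2* spanned -0.0755 to 0.0939, *Scap* -0.0038 to 0.0945, *Hmgcs1* -0.0589 to 0.0348, *Fdft1* -0.0919 to 0.0145 and *Tm7sf2* -0.0336 to 0.1999. *Hsd17b7* spanned -0.0768 to 0.0285 between the sets. Depth limits *Idi1*, *Scd1* and *Fads2* most, with as few as 6, 8 and 14 reads in a tunicamycin library.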
